A study of Mus musculus with 5 samples.

Results

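Hox genes and related homeodomain genes that mark position along the body were examined in cultures of dorsal root ganglion (DRG) neurons and of cerebellar granule neurons (CGNs) from mice. Members were all genes whose symbol is a Hox, Meis, Pbx, Irx, Lhx, Nkx, Dlx, Otx, En or Gbx symbol with its paralog number, or Six4 and its numbered relatives, and each gene was the sum of its isoforms. This gave 45 of the 15154 genes listed, 25 of them Hox genes and 20 others. No Gbx gene was listed. Six6os1 met the symbol rule but is named as an opposite-strand transcript of Six6. It had no coding sequence of that name to search for a homeobox.

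All cells came from C57bl/6j mice at postnatal day 8 and were grown on poly-d-lysine and laminin before polyadenylated RNA was sequenced. The 3 DRG libraries were of neurons kept for 16 days in vitro, each from the ganglia of a pair of mice, with nerve growth factor and a drug against dividing cells in the medium. The 2 CGN libraries were of neurons kept for 16 hours in vitro, each from a single mouse. Time in culture differed with the cell type, so effects of time and of cell type cannot be told apart. Some non-neuronal cells remained in the DRG cultures, and values are those of whole cultures.

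Homeodomain proteins are transcription factors that bind DNA through a short helical domain, encoded by the homeobox. Hox genes lie in 4 clusters, A to D, and the order of genes within a cluster follows the order of their expression along the body axis, so that low paralog numbers mark the hindbrain and neck and high numbers the trunk and tail. Ganglia along the spinal cord arise from trunk neural crest, within the Hox-expressing part of the axis, whereas the cerebellum arises in front of it, in a territory set up by Otx and En factors. Pbx and Meis proteins are cofactors that bind DNA together with Hox proteins.

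The homeobox bases that encode the DNA-reading helix are shown for the highest Hox genes of the B and D clusters and for members outside the clusters on which the results turn, because this is the part of the gene all of them share. A stretch of 30 coding bases was read around the conserved codons of that helix, matched in frame, in the longest GENCODE M1 coding sequence of each gene (NCBIM37, which is mm9). Capitals mark the codon for the residue known best for setting which bases a homeodomain prefers.
Hoxb9: aaaatctggtttCAGaaccggcggatgaaa
Hoxd8: aaaatctggttcCAGaacaggagaatgaaa
Otx2: caggtatggtttAAGaatcgaagagctaag
Meis1: aacaattggtttATTaatgcccggagaaga
Irx1: tccacctggttcGCCaatgcgcgccggcgc
Lhx1: caggtctggttcCAGaatcgacgctccaag
En2: aagatttggttcCAGaacaagcgggccaaa
The match was found once in each of the 44 members that have a coding sequence there. At the capitalised codon, 21 Hox genes had CAG and 4 had CAA. Outside the clusters, Dlx2, Lhx1, Lhx5, Nkx2-2 and En2 also had CAG, and En1 had CAA. Six2, Six4, Otx1 and Otx2 had AAG, Pbx2 GGT, Pbx3 and Pbx4 GGC, the Irx genes GCC and Meis1 ATT. Over the 30 bases, pairs of Hox genes shared between 20 and 30 identical positions. Hoxa6, Hoxa7 and Hoxb4 had the same 30 bases, as did Hoxb3 and Hoxd3.

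Expression was given as FPKM, the number of sequenced fragments scaled by transcript length and by library, so that levels of different genes stand on a scale per length. The cell types were compared by limma on log2(FPKM + 50) over the 13275 genes with an FPKM of at least 50 in at least 2 libraries. Calls of higher or lower expression required an adjusted p under 0.05 (Benjamini-Hochberg, over all of these genes). A log2 fold change on this scale is DRG neurons over CGNs and understates the change of genes with low FPKM. Total FPKM ranged over 51860685 to 62824363 in DRG libraries, against 22444463 to 37275184 in CGN libraries, and the log2 fold change had a median of 0.59 over these genes. It was 0.02 after quantile normalization, -0.26 after scaling to equal totals and -0.04 after median ratio scaling. Of all genes tested, 3775 were called higher (28.4%) and 1224 lower (9.22%) in DRG neurons, against 2288 higher and 3459 lower after scaling to equal totals. Read counts were not analysed, which leaves the depth of single values unknown. A value listed at 0 does not show absence, since even Rps13, a ribosomal protein gene, stood at 0 in each of the 5 libraries. No fold change is therefore given against a cell type listed at 0 throughout. The replicates were separate cultures, and p-values measure differences against the spread between them, moderated in limma by that of all genes tested. The cell types matched their labels: 13 of 13 sensory neuron markers tested were higher in DRG neurons, and 12 of 12 granule neuron markers were lower.

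Hox genes were expressed in the DRG cultures and listed at 0 in the CGN cultures. Of the 25 Hox genes, 20 had an FPKM above 0 in every DRG library and 17 had at least 50 in every DRG library. All 25 were listed at 0 in both CGN libraries. Among genes tested, this held for all 21 Hox genes and for 2.55% of all genes. The FPKM of all Hox genes together was 19298, 14871 and 15091 in the DRG libraries, against 0 and 0 in the CGN libraries. This was 307, 287 and 280 ppm of the total FPKM in the DRG libraries. The confidence bounds deposited with the CGN values were also 0 for all 38 Hox isoforms and so set no upper limit.

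Of the Hox genes, 21 passed the filter on low values and 17 of them were called higher in DRG neurons. None was called lower, and Hoxb2, Hoxb3, Hoxb6 and Hoxc5 did not pass the test. Over all genes tested, 28.4% were called higher and 9.22% lower. Every DRG library was above every CGN library for 20 of the 21, and for 43.5% of all genes tested. With CGN values at 0, each of the 21 had passed the filter through its DRG values alone, so a difference was built into this count and it is given as a description. CGN values at 0 added no spread of their own. In the DRG libraries, the coefficient of variation of these genes ranged from 10.4% to 96.3% with a median of 33.8%. The test did not rest on this spread alone, since limma with empirical Bayes also draws on the spread of all genes tested. Across the 21 genes, which are not independent replicates, pairs of DRG libraries were correlated on the log scale that was tested with limma. Pearson's r was 0.797 to 0.873 and Spearman's rho was 0.851 to 0.896. These genes share library, locus and annotation, and no test is given for the correlation.

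**Figure D1:**
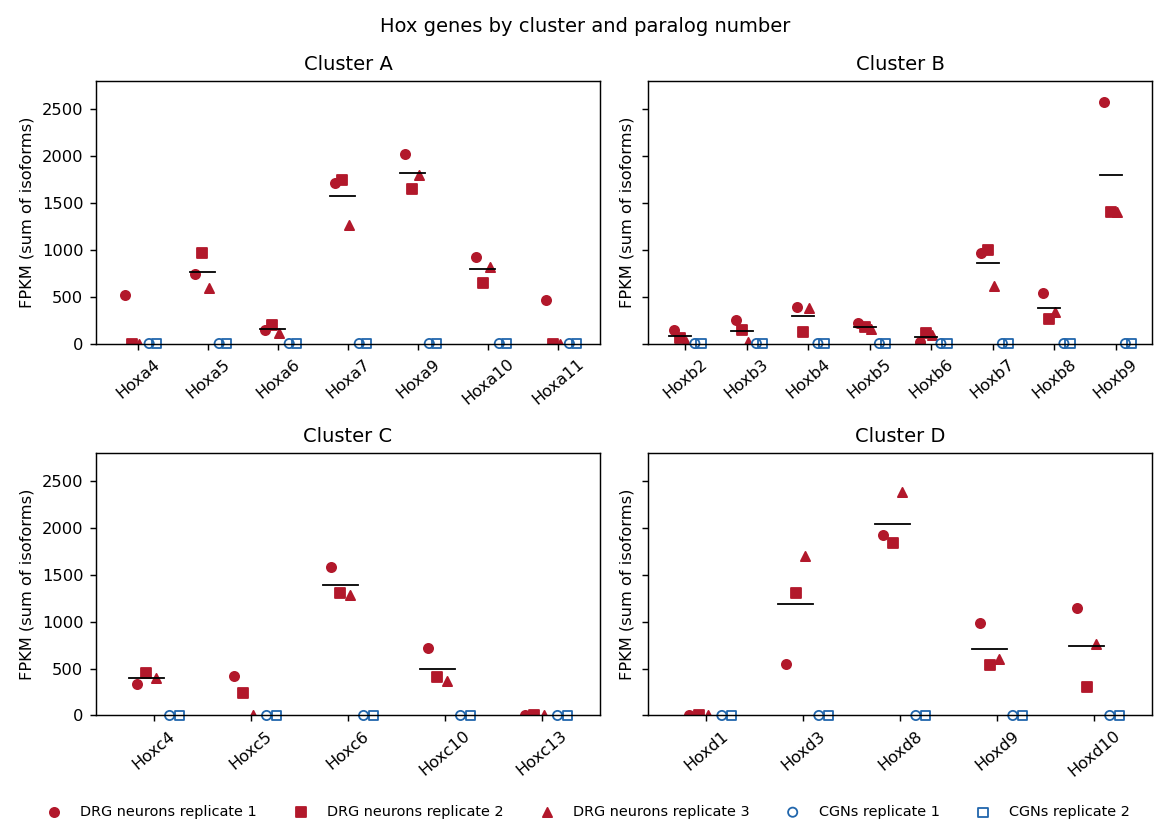
FPKM of each Hox gene (sum of isoforms, linear axis) by cluster and paralog number. Filled red symbols are the 3 DRG libraries, open blue symbols the 2 CGN libraries, and black lines the mean of DRG libraries where none is at 0. The highest DRG values are those of Hoxb9, Hoxd8 and Hoxa9, and CGN symbols all lie at 0.

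In the Hoxa cluster (chr6:52133757-52195049 in mm9), FPKM was highest in the middle of the paralog series. Hoxa9, whose paralogs pattern the trunk and the limb-level spinal cord, had 2022, 1645 and 1801 FPKM in the DRG libraries and 0 and 0 in the CGN libraries (adjusted p = 0.00015). Hoxa7 had 1708, 1745 and 1264 FPKM in DRG neurons and 0 in both CGN libraries (adjusted p = 0.00022). These were also the genes of the cluster with the smallest spread between DRG libraries relative to their mean. Hoxa10, a posterior gene of lumbar levels, had 925, 642 and 811 FPKM in DRG neurons, against 0 and 0 in CGNs (adjusted p = 0.0007). Hoxa5, a gene of cervical and brachial levels, had 741, 961 and 591 FPKM in DRG neurons, against 0 and 0 in CGNs (adjusted p = 0.00082). Hoxa6 was the lowest gene of the cluster that passed the test, with 148, 195 and 113 FPKM in DRG neurons, against 0 and 0 in CGNs (adjusted p = 0.018). Hoxa4 and Hoxa11, at the ends of the series, rested on a single library. Hoxa4 had 522, 0 and 0 FPKM and Hoxa11 had 460, 0 and 0 FPKM in the DRG libraries. Both were at 0 in CGNs and neither was tested.

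The Hoxb cluster (chr11:96111598-96215307) showed its highest values at its posterior end. Hoxb9 had 2580, 1401 and 1404 FPKM in the DRG libraries and 0 and 0 in the CGN libraries (adjusted p = 0.00023), the highest single value of any Hox gene being that of DRG replicate 1. Hoxb7 followed with 967, 996 and 613 FPKM in DRG neurons, against 0 and 0 in CGNs (adjusted p = 0.00069). Hoxb8, which lies between them, was lower than either, with 540, 266 and 341 FPKM in DRG neurons, against 0 and 0 in CGNs (adjusted p = 0.0035). The anterior genes of the cluster were low. Hoxb4 had 387, 127 and 379 FPKM in DRG neurons, against 0 and 0 in CGNs (adjusted p = 0.0092), and Hoxb5 had 214, 172 and 154 FPKM, against 0 and 0 (adjusted p = 0.011). The call of Hoxb4 was lost without CGN replicate 1 (adjusted p = 0.097) and without CGN replicate 2 (adjusted p = 0.074), in a range of 0.0015 to 0.097 over all alternatives.

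The remaining Hoxb genes did not pass the test, and their DRG libraries differed widely. Hoxb3 had 250, 144 and 17.2 FPKM in DRG neurons, against 0 and 0 in CGNs (adjusted p = 0.087). Without DRG replicate 3, the lowest library, Hoxb3 passed (adjusted p = 0.012, range over alternatives 0.012 to 0.33), as it did with pseudocounts of 1 (0.016) and 10 (0.049). Hoxb2, a gene of the hindbrain, had 149, 56 and 20.4 FPKM in DRG neurons, against 0 and 0 in CGNs (adjusted p = 0.14). Hoxb6 had 13, 113 and 87.4 FPKM in DRG neurons, against 0 and 0 in CGNs (adjusted p = 0.14). Replicate 1 was highest for Hoxb2 and Hoxb3 and lowest for Hoxb6, so no DRG library was low throughout. With a pseudocount of 1, Hoxb2 passed (adjusted p = 0.013, range over alternatives 0.013 to 0.37), as did Hoxb6 (adjusted p = 0.017, range 0.017 to 0.35).

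In the Hoxc cluster (chr15:102752325-102867277), Hoxc6 led, a gene of brachial and thoracic levels. It had 1589, 1311 and 1282 FPKM in DRG neurons, against 0 and 0 in CGNs (adjusted p = 0.00025). Hoxc10, a lumbar gene, had 722, 408 and 369 FPKM in DRG neurons, against 0 and 0 in CGNs (adjusted p = 0.0022), and Hoxc4 had 334, 458 and 396 FPKM, against 0 and 0 (adjusted p = 0.0024). Hoxc10 was thus most abundant in DRG replicate 1, whereas Hoxc4 was lowest there. Hoxc5 had 421, 236 and 0 FPKM in DRG neurons, against 0 and 0 in CGNs, and did not pass the test (adjusted p = 0.11). Without DRG replicate 3, where it was listed at 0, it passed (adjusted p = 0.0022, range over alternatives 0.0022 to 0.44). Hoxc13, the most posterior Hox gene listed, was at 0 in all 5 libraries. Hoxc8 and Hoxc9 were not analysed here.

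In the Hoxd cluster (chr2:74517606-74602723), Hoxd8 had 1922, 1837 and 2380 FPKM in the DRG libraries and 0 and 0 in the CGN libraries (adjusted p = 0.00013), the lowest adjusted p of any member. Hoxd3, an anterior gene known for its part in the skeleton of the neck, had 549, 1308 and 1699 FPKM in DRG neurons, against 0 and 0 in CGNs (adjusted p = 0.00086). Its isoforms listed at the locus of Hoxd8 had 378, 765 and 296 FPKM and 171, 219 and 523 FPKM in the DRG libraries. The isoform listed outside that locus had 4.6e-08, 325 and 881 FPKM. In replicate 1, the value thus rested on the locus shared with Hoxd8. As listed, Hoxd3 was the most abundant anterior Hox gene, above Hoxb2 and Hoxb3 in every DRG library. All of Hoxd3 came from isoforms assembled from the reads. Its call was lost without CGN replicate 1 (adjusted p = 0.052, range over alternatives 6.2e-07 to 0.052). Hoxd9 had 985, 540 and 604 FPKM in DRG neurons, against 0 and 0 in CGNs (adjusted p = 0.0011). Hoxd10, known for its part in lumbar motor neurons and the hindlimb, had 1149, 308 and 767 FPKM in DRG neurons, against 0 and 0 in CGNs (adjusted p = 0.0023). The call of Hoxd10 was lost without CGN replicate 1 (adjusted p = 0.075) and without CGN replicate 2 (adjusted p = 0.055), in a range of 6.5e-05 to 0.075. It was also lost with reference isoforms only (adjusted p = 0.057). Hoxd1 was listed at 0 in all 5 libraries.

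Summed by paralog number, Hox FPKM in the DRG libraries had its largest sum in group 9, which took 28.9%, 24.1% and 25.2% of all Hox FPKM. The sum of Hoxa9, Hoxb9 and Hoxd9 was 5586, 3586 and 3808 FPKM. Group 7 had 2675, 2741 and 1877 FPKM, group 8 had 2462, 2102 and 2721, and group 10 had 2796, 1359 and 1947. Group 6 had 1750, 1619 and 1483 FPKM, and group 3 had 799, 1453 and 1716. The ranges of groups 7, 8 and 10 overlapped, as did those of group 10 with groups 6 and 3, so the order below group 9 was not resolved. The sums also depend on how many genes are listed, 3 in group 9 but 2 each in groups 7 and 8. Per listed gene, group 9 had 1862, 1195 and 1269 FPKM, group 7 had 1338, 1371 and 939 and group 8 had 1231, 1051 and 1361, so that group 9 led in replicate 1 only. Paralogs 4 to 8 together (13 listed genes) made up 49.3%, 56.6% and 50.4% of Hox FPKM, paralogs 9 to 13 (8 genes) made up 45.8%, 33.3% and 38.1%, and paralogs 1 to 3 (4 genes) made up 4.92%, 10.1% and 11.5%. Replicate 1 had the largest posterior and the smallest anterior share. The anterior share includes Hoxd3, which was listed in part at the locus of Hoxd8. By cluster, Hoxa took 33.8%, 34.9% and 30.3% of Hox FPKM, Hoxd 23.9%, 26.9% and 36.1%, Hoxb 26.4%, 22% and 20%, and Hoxc 15.9%, 16.2% and 13.6%. Replicate 3 was the only library in which Hoxd exceeded Hoxa. Ganglia of all levels that were pooled cannot be told apart in these sums.

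**Figure D2:**
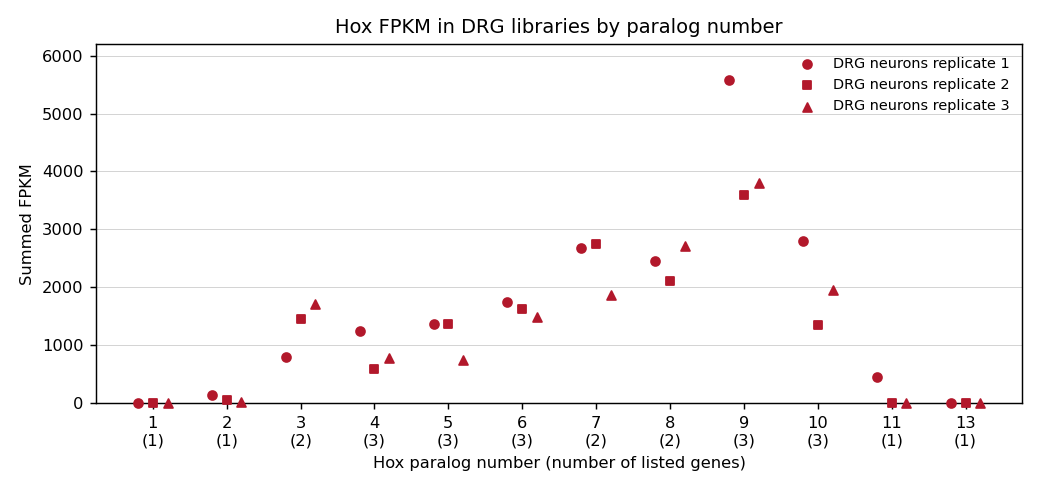
Summed FPKM of the Hox genes of each paralog number in the 3 DRG libraries, with the number of listed genes in brackets under each paralog number. Each symbol is a library. The sum of group 9, over 3 genes, is highest in every library, at 5586, 3586 and 3808 FPKM, and groups 1 and 13 are at 0.

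Markers of non-neuronal cells that are themselves known to express Hox genes also differed between the cultures, and fewer cells of a type and less RNA per cell cannot be told apart in bulk cultures. Of the fibroblast markers, 10 of 13 tested were higher in DRG neurons, where 28.4% of all genes were higher and 9.22% lower. Their summed FPKM was 93305 to 179988 in DRG libraries, against 4761 to 11552 in CGN libraries. Of the Schwann and satellite glia markers, 9 of 14 tested were higher and 2 lower in DRG neurons. Their sums were 127436 to 163674 in DRG libraries, against 28351 to 40528 in CGN libraries. Of the endothelial and mural markers, 2 of 7 tested were higher and 1 lower. The Schwann cell genes Dhh and Foxd3 and the fibroblast genes Dpt and Mfap5 were listed at 0 in both CGN libraries. Between DRG libraries, the fibroblast sum was 179988, 93305 and 167558, and that of endothelial and mural markers was 37787, 7346 and 17411. DRG replicate 1, which alone had Hoxa4 and Hoxa11, was highest in both. It was also highest in total FPKM (62824363) and in the sum of sensory neuron markers (594613, 544695 and 426472). The sum of Schwann and satellite glia markers was highest in replicate 3 (163674). Of the endothelial and mural sum, Acta2 alone gave 33450, 4888 and 13628 FPKM. The part of non-neuronal cells in the Hox values was not tested.

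Hox transcripts in the deposited table overlap, and the library kit does not mark strand. Hoxb4, Hoxb5 and Hoxb6 were listed at a single locus (chr11:96160028-96183010), as were Hoxd8 and part of Hoxd3 (chr2:74541054-74563630), so reads could be split between them in more than 1 way. The 25 Hox genes had 38 isoforms, of which 27 were reference transcripts and 11 were assembled from the reads. The lower 95% confidence bound was above 0 for 29, 31 and 28 of these isoforms in the DRG libraries and in all 3 for 22. Of the 31 Hox isoforms tested one by one, 15 were called higher in DRG neurons, against 9.63% of all isoforms tested. All of these passed the filter through their DRG values alone. Of all 58 member isoforms tested, 16 were called higher and 11 lower, and 5.04% of all isoforms tested were called lower. Without DRG replicate 1 only 4 were called higher and 2 lower.

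For Hoxa9, single isoforms varied more between DRG libraries than their sum. The reference isoform of Hoxa9 had 324, 558 and 1013 FPKM in the DRG libraries, and its assembled isoform Hoxa9_j1 had 1698, 1087 and 788 FPKM, while their sum stayed between 1645 and 2022. Both isoforms were at 0 in CGNs. Hoxd8 was divided more evenly: its reference isoforms had 750, 1019 and 1269 FPKM and 1172, 818 and 1111 FPKM in the DRG libraries. For Hoxa10, the reference isoform had 99.1, 150 and 53.5 FPKM in DRG neurons and Hoxa10_j1 had 513, 173 and 214. Counting reference isoforms only, Hoxa10 did not pass the test (adjusted p = 0.068, range over alternatives 1.1e-05 to 0.068).

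Promoters are shown for Hoxa5 and Hoxd10, which moved together here, and for Lhx1, which moved the other way, because all 3 are rich in CpG, the dinucleotide at which vertebrate DNA is methylated. Each is the 150 bases before the transcription start from RefSeq (GRCm38.p6), with CG in capitals. Hoxa5 is at chr6:52204588-52204737 on the minus strand, Hoxd10 at chr2:74691741-74691890 on the plus strand and Lhx1 at chr11:84525535-84525684 on the minus strand.
Hoxa5: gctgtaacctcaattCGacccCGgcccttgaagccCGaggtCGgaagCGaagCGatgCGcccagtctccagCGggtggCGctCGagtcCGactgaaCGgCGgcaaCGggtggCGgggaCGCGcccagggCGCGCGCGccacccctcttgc
Hoxd10: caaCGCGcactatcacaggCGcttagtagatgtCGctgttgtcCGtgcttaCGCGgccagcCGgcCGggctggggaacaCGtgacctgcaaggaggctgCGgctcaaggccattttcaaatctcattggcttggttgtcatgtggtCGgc
Lhx1: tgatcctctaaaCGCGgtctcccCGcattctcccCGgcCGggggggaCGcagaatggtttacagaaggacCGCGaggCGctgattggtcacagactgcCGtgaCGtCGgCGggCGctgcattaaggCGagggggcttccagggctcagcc
These windows held 21, 12 and 15 CpG dinucleotides. A promoter of 300 bases, 250 before and 50 after the start, was found for 25 members. The 14 Hox promoters held 4 to 29 CpG with a median of 17.5, the 11 other members had a median of 23, and the 27025 genes in the RefSeq table had a median of 7. The motif TGATTNAT, which Pbx and Hox proteins bind together, was searched on both strands and found in 0 of the 25 members and in 3.74% of all genes. The Meis motif TGACAG, neither motif containing the other, was found in En1, Lhx1 and Six2 and in 21.6% of all genes. A match describes these letters only.

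Of the 20 members outside the Hox clusters, 16 passed the filter, 2 were called higher in DRG neurons and 10 lower. Six4 was among those called higher, and those called lower included Meis1, Dlx2, Irx1, Irx2, Lhx1, Nkx2-2, En2, Otx1 and Otx2. The shares called over all genes tested were 28.4% higher and 9.22% lower. Every DRG library lay below every CGN library for 12 of the 16, and for 16.8% of all genes tested. In all DRG libraries, 7 of the 16 were listed at 0, as were 1.91% of all genes tested, and these had passed the filter through their CGN values alone. The 20 genes together took 93.5, 103 and 143 ppm of the total FPKM in the DRG libraries and 587 and 662 ppm in the CGN libraries.

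**Figure D3:**
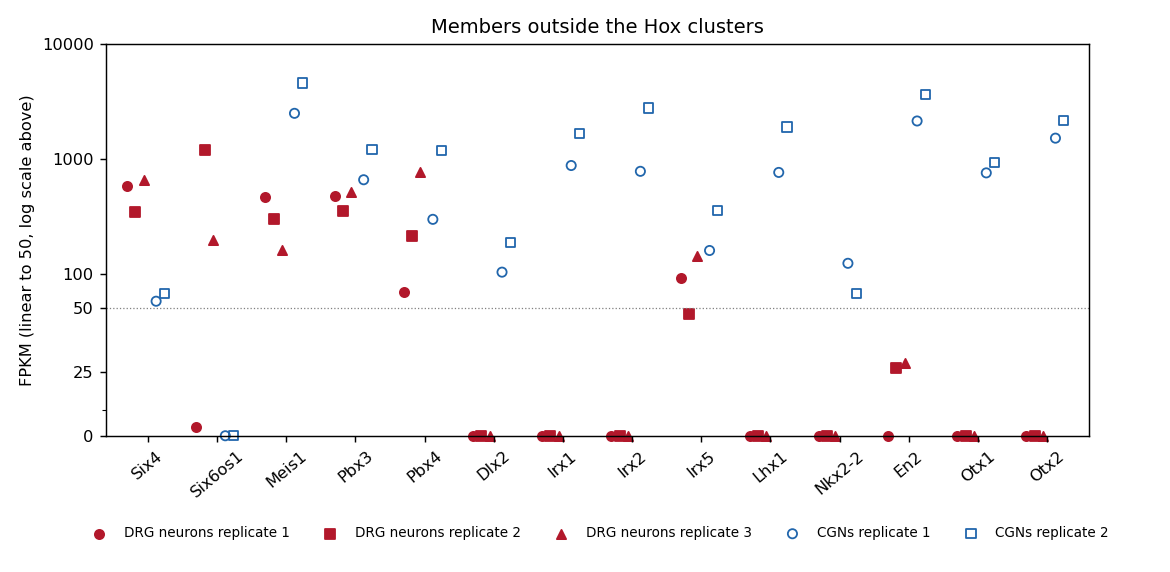
FPKM of 14 tested members outside the Hox clusters (linear to 50, log scale above). Filled red symbols are DRG libraries and open blue symbols CGN libraries, with the dotted line at the filter of 50 FPKM. Six4 lies higher in DRG neurons, while Irx1, Irx2, Lhx1, Otx1 and Otx2 lie at 0 in DRG neurons and at 754 FPKM or more in CGNs.

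Six4, which is known for its part in the development of sensory neurons, was higher in DRG neurons. Six4 (chr12:74201246-74214401) had 576, 344 and 654 FPKM in DRG neurons and 57.5 and 66.7 FPKM in CGNs, a log2 fold change of 2.32 ± 0.58 (SE, adjusted p = 0.013). The call of Six4 was lost without CGN replicate 1 (adjusted p = 0.082) and without CGN replicate 2 (adjusted p = 0.055), in a range of 0.0069 to 0.082. Six2 had 0, 0 and 310 FPKM in DRG neurons, against 0 and 0 in CGNs, and was not tested. Six6os1 had 3.25, 1191 and 198 FPKM in DRG neurons, against 0 and 0 in CGNs (adjusted p = 0.12). It passed without DRG replicate 1 (adjusted p = 0.00035) and without DRG replicate 3 (adjusted p = 0.038), in a range of 0.00035 to 0.47, and with a replicate block (0.017).

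Meis1 and the Pbx genes given here, Hox cofactors, were not called higher in DRG neurons. Meis1 (chr11:18780433-18918961), which is known to be expressed in granule neurons, had 461, 300 and 162 FPKM in DRG neurons and 2489 and 4574 FPKM in CGNs. Its log2 fold change was -3.35 ± 0.55 (SE, adjusted p = 0.0017), and mean FPKM was 11.5 times as high in CGNs. Leaving out CGN replicate 1 or 2 ended the call of Meis1 (adjusted p = 0.05 and 0.055, range over alternatives 1.5e-05 to 0.055). Pbx3 had 472, 351 and 512 FPKM in DRG neurons and 657 and 1196 FPKM in CGNs, a log2 fold change of -0.94 that did not pass the test (adjusted p = 0.19). Relative to the median of all genes the difference was larger, and Pbx3 passed after quantile normalization (adjusted p = 0.017), scaling to equal totals (0.0075) and median ratio scaling (0.013), in a range of 0.0075 to 0.42. Pbx4 had 69.4, 211 and 765 FPKM in DRG neurons and 297 and 1174 FPKM in CGNs, and the cell types overlapped (adjusted p = 0.33). Pbx2 reached 109 FPKM in DRG replicate 1, lay below 1 FPKM in the other libraries and was not tested.

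Isoforms of members outside the Hox clusters were compared as shares of the FPKM of their gene. Over the 15 shares compared, no Benjamini-Hochberg adjusted value was below 0.5, and the smallest exact two-sided permutation p that 3 against 2 libraries allow is 0.1. For Meis1, Meis1_j3 took 0.737%, 37.7% and 70.6% in DRG neurons, against 82.7% and 81.3% in CGNs, so that DRG replicates differed more from each other than replicate 3 did from CGNs (exact permutation p = 0.2).

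**Figure D4:**
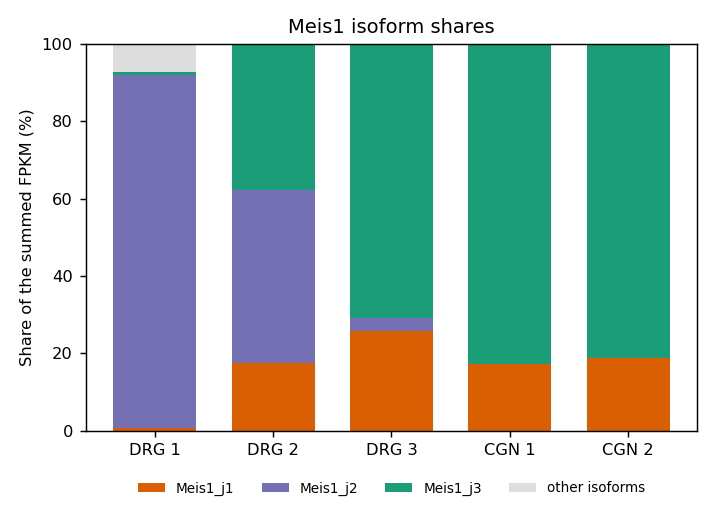
Share of the summed FPKM of Meis1 taken by each isoform, in percent, with a bar for each library. Meis1_j3 takes 0.737%, 37.7% and 70.6% in the DRG libraries and 82.7% and 81.3% in the CGN libraries.

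Factors of the anterior brain were at or near 0 in the DRG cultures and high in CGNs. En2 (chr5:28492236-28500152), which patterns the midbrain and cerebellum, had 0, 26.6 and 28.6 FPKM in DRG neurons and 2135 and 3611 FPKM in CGNs, a log2 fold change of -5.40 ± 0.60 (SE, adjusted p = 0.00022). Otx2, a factor of the forebrain and midbrain that granule cells of the posterior cerebellum are also known to express, had 0 FPKM in all 3 DRG libraries and 1513 and 2167 FPKM in CGNs (adjusted p = 0.0002). Otx1, its paralog, had 0 FPKM in all 3 DRG libraries and 754 and 927 FPKM in CGNs (adjusted p = 0.00051). Like the members listed at 0 in all DRG libraries, En2 had passed the filter through its CGN values alone. En1, the paralog of En2, was listed at 0 in all 5 libraries.

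Iroquois genes, which pattern regions of the neural tube, were divided. Irx1 had 0 FPKM in all 3 DRG libraries and 874 and 1656 FPKM in CGNs (adjusted p = 0.00039), and Irx2, its neighbour on chromosome 13, had 0 FPKM in all 3 DRG libraries and 778 and 2774 FPKM in CGNs (adjusted p = 0.00058). Irx5, which lies on chromosome 8, had 91.7, 47.7 and 142 FPKM in DRG neurons and 159 and 352 FPKM in CGNs. Its log2 fold change of -1.07 did not pass the test (adjusted p = 0.2), and it passed after scaling to equal totals (adjusted p = 0.027) and median ratio scaling (0.041), in a range of 0.027 to 0.42.

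Lhx1, Dlx2 and Nkx2-2 were also listed at 0 in all 3 DRG libraries. Lhx1, a factor of Purkinje cells, had 761 and 1893 FPKM in CGNs (adjusted p = 0.0005), while its paralog Lhx5 had 0 FPKM in all 3 DRG libraries and only 26.7 and 3.87 FPKM in CGNs and was not tested. Dlx2, a factor of inhibitory neurons of the forebrain, had 103 and 187 FPKM in CGNs (adjusted p = 0.017). Nkx2-2, a factor of ventral progenitors and oligodendrocyte precursors, had 123 and 67.1 FPKM in CGNs (adjusted p = 0.041). The call of Nkx2-2 was lost without DRG replicate 1 (adjusted p = 0.08), DRG replicate 2 (0.087) or DRG replicate 3 (0.082), in a range of 0.0036 to 0.15. Markers of other cerebellar cells were present in the CGN libraries. Of the markers of other cerebellar neurons, 10 of 11 tested were lower in DRG neurons, where 9.22% of all genes were lower and 28.4% higher. Their sums were 451 to 7029 FPKM in DRG libraries, against 13717 to 24608 FPKM in CGN libraries. The Purkinje cell marker Pvalb and the inhibitory neuron markers Gad1 and Slc32a1 were at 0 in all DRG libraries, but Pcp2 had 5843, 103 and 94.5 FPKM in the DRG libraries, against 2869 and 5674 FPKM in the CGN libraries. Of the cerebellar glia markers, 9 of 13 tested were lower and 2 higher in DRG neurons, with sums of 7001 to 11291 FPKM in DRG libraries, against 30284 to 47174 FPKM in CGN libraries. The part of these cells in the values of Lhx1, Dlx2 and Nkx2-2 was not tested.

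**Figure D5:**
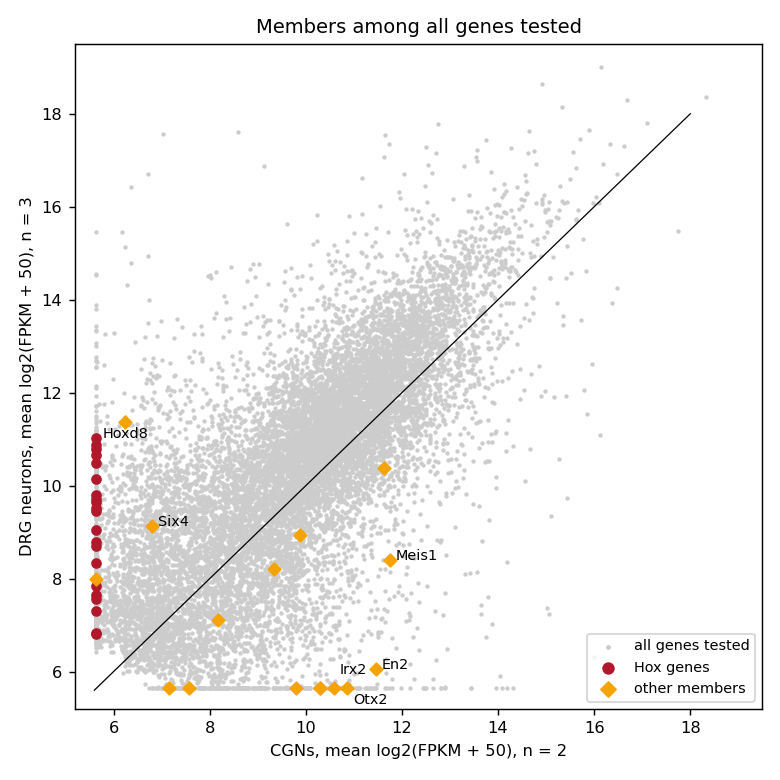
Mean log2(FPKM + 50) of DRG neurons (n = 3) against that of CGNs (n = 2) for the 13275 genes tested (grey), with the 21 Hox genes (red) and the 16 other members (orange) marked and a line of equality. Hox genes lie on the left edge, where CGN values are 0, and 7 other members lie on the lower edge, where DRG values are 0.

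Genes that regulate Hox expression or work beside it were counted by list. The retinoic acid pathway, which sets Hox expression in the embryo, had 4 of 11 genes tested higher and 0 lower in DRG neurons, where 28.4% of all genes were higher and 9.22% lower, and a median log2 fold change of 1.43, against 0.59 over all genes. The share called higher is near that over all genes, and nothing particular to the list is read from it. Aldh1a2, which makes retinoic acid, had 1710, 688 and 1053 FPKM in DRG neurons and 32.9 and 41 FPKM in CGNs (adjusted p = 0.0016). Rdh10 and Cyp26b1 were also called. No receptor gene of the list passed the test. Aldh1a2 is also known from fibroblasts and meningeal cells, and fibroblast markers moved with it as given above, and this was not tested.

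Polycomb genes, whose products keep Hox clusters silent, were mixed: of 19 tested, 3 were higher, 4 lower and 12 did not pass the test. Among all genes tested, 28.4% were higher and 9.22% lower. The median log2 fold change of the Polycomb genes was -0.03. Cbx6 had 6612, 4826 and 6872 FPKM in DRG neurons and 1185 and 1805 FPKM in CGNs (adjusted p = 0.0024), and Pcgf1 was the other gene with the largest positive change (adjusted p = 0.028). Mtf2, which helps to recruit Polycomb to CpG islands, had 272, 738 and 244 FPKM in DRG neurons and 3345 and 5017 FPKM in CGNs (adjusted p = 0.0018). Pcgf2 was lower too (adjusted p = 0.0052). Ezh2, the methyltransferase of the complex, had 111, 37.6 and 48 FPKM in DRG neurons and 51 and 78.3 FPKM in CGNs and did not pass the test (adjusted p = 0.97). Of the trithorax genes and H3K27 demethylases, which oppose Polycomb, 2 of 10 tested were lower and 0 higher. These were Jmjd3, with 1.4e-05, 63.1 and 59 FPKM in DRG neurons and 436 and 590 FPKM in CGNs (adjusted p = 0.0085), and Mll5 (adjusted p = 0.0095).

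No tested gene beside the Hox clusters was at or near 0 in both CGN libraries. The list held 16 neighbours, of which 8 had values and were tested, Evx1 and Evx2 not among them. Of these 8, 4 were higher in DRG neurons and 0 lower, where 28.4% of all genes were higher and 9.22% lower. The 8 had a median log2 fold change of 1.19, against 0.59 over all genes. Lnp, next to the Hoxd cluster, had 629, 575 and 1065 FPKM in DRG neurons and 139 and 96 FPKM in CGNs (adjusted p = 0.014), and Snx10, near the Hoxa cluster, had 6429, 3916 and 6582 FPKM in DRG neurons, against 1174 and 2255 FPKM in CGNs (adjusted p = 0.0096). The other genes called were Ube2z and Mtx2. Among the 8, only Skap2 was near 0 in a CGN library, with 157, 199 and 757 FPKM in DRG neurons and 0.02 and 591 FPKM in CGNs (adjusted p = 0.5). Of 5 other genes of the TALE homeodomain class, to which Meis and Pbx belong, only Tgif1 was called, with 5496, 4989 and 3009 FPKM in DRG neurons and 1267 and 2037 FPKM in CGNs (adjusted p = 0.021). Of 4 other regulators of axial position tested, 0 passed the test in limma and 0 had an unadjusted p under 0.05.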

How the data were processed

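Polyadenylated RNA of 3 DRG and 2 CGN cultures had been sequenced and, per the labels, aligned to mm9 with TopHat, assembled with Cufflinks and quantified with Cuffdiff. The deposited values are FPKM per isoform, which the authors estimated for each library with upper-quartile normalization, together with confidence bounds. The grouped columns and the authors' own comparison columns (fold changes, p-values and calls) were not used. Of 50356 lines, 17 exact repeats were dropped. Isoform FPKM were summed per gene, and log2(FPKM + 50) was tested with limma 3.58.1 (empirical Bayes with trend, R 4.3.3) for features that reached an FPKM of 50 in at least 2 libraries, with Benjamini-Hochberg adjustment over all features. The fit was tested on simulated data, with fewer genes changed than were called here. At a simulated log2 fold change of 1 it called 0% of 67 genes, at 2 it called 4% of 67 and at 4 it called 55% of 66. It called 3 of the unchanged genes. A gene that did not pass the test is therefore not shown to be unchanged. Isoform shares were compared by exact permutation. Tables and figures used Python 3.11.15, pandas 2.3.3, scipy 1.17.1 and matplotlib 3.10.9. Values are given for each Hox gene and each other tested member, and for up to 2 genes per list and direction with the largest change past the threshold. Ezh2, the marker genes named beside a result and the promoters shown were chosen after their values were seen. The members and lists were chosen with earlier results of these data known. Alternatives were pseudocounts of 1 and 10, no filter, a filter of 100 FPKM, quantile, median ratio and equal total scaling, limma with a robust prior or with no trend, a replicate block, each library left out, and reference isoforms only. A protein table was not used here. Some genes and sequences that met these rules, and the results that need them, are not reported here.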

Additional observations from a re-analysis of the deposited data

How the results depend on the processing

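The count of Hox genes called higher in DRG neurons was 17 and ranged from 14 to 20 over the 16 alternatives, and no tested member changed direction in any of them. The count of other members called lower was 10 and ranged from 7 to 12. Counts over all genes moved more. Genes called higher (3775) numbered 2288 after scaling to equal total FPKM and 2444 with a replicate block, and 1580 to 3850 with each library left out, the lowest without CGN replicate 1. Genes called lower (1224) numbered 3459 after scaling to equal total FPKM, 2798 after quantile normalization, 2778 after median ratio scaling and 668 with reference isoforms only, where 9908 genes were tested, and 734 to 1241 with each library left out, the lowest without CGN replicate 2. Other members called higher (2) numbered 1 to 3 with each library left out, being 1 without either CGN library. Member isoforms called higher (16) numbered 25 with a pseudocount of 1 and 4 to 9 with each library left out, and those called lower (11) numbered 2 to 11, both lowest without DRG replicate 1. The cause of these shifts was not tested. Deviations of same-numbered libraries correlated at -0.023 and 0.00769. With 2 CGN libraries, whose deviations mirror each other, these values cannot decide whether replicate numbers pair the cultures. With the replicate block, 19 Hox genes were called higher, with Hoxb3 (adjusted p = 0.022), Hoxc5 (adjusted p = 0.0027) and, outside the clusters, Six6os1 (adjusted p = 0.017) passing the test, and Dlx2 (adjusted p = 0.057) and Nkx2-2 (0.15) no longer did. The paper gives more reads for each CGN library than for any DRG library, but the depth of single values is unknown. Values at 0 limit every statement on CGN Hox genes.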

Other observations

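Of 4 other transcripts listed inside the Hox clusters, 2 had values in all DRG libraries and were listed at 0 in CGNs. AK078566, at the locus of Hoxb9, had 671, 339 and 423 FPKM in the DRG libraries, against 0 and 0 in the CGN libraries. At the locus shared by Hoxd3 and Hoxd8, 1700109F18Rik had 305, 430 and 302 FPKM in the DRG libraries, against 0 and 0 in the CGN libraries. In the Hoxd cluster, RP23-190O13.2 had 316 FPKM in DRG replicate 2 and 0 in the other 4 libraries, and AK039882 in the Hoxa cluster was at 0 in all 5. These were chosen after their values were seen and carry no test. Without strand, reads of AK078566 and 1700109F18Rik cannot be told apart from those of Hox genes they overlap.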
